A study of Mus musculus with 6 samples.

Results

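Complement is a system of plasma and tissue proteins that mark surfaces for removal, and 9 of its genes are described here in the mouse uterus of mid-pregnancy. They were taken by symbol from the 24964 rows of the deposited table, and all 9 were found there: C1qa, C1qb, C1qc, C1s1, C2, C3, C4b, Cfb and Serping1. RNA was sequenced from uterus of gestation day 13, cut around the sites of implantation, in 3 libraries whose labels give a myometrial (uterine muscle) knockout of PGR, the progesterone receptor, and in 3 control libraries. The sources used here do not give the strain, age, allele or driver of the knockout, nor the genotype of the controls beyond that word. Whether each library stands for its own animal is not said in the labels, so a p-value here speaks of the spread among libraries, which may be technical. Values are FPKM, fragments on a gene scaled by the length of its model and by library size.

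The classical route of complement opens when C1q, a bundle of A, B and C chains, binds antibody or a damaged surface and switches on the proteases C1r and C1s. C1s cuts C4 and C2, whose fragments together cut C3, the protein on which all routes meet, while the alternative route cuts C3 with factor B. C1q is made mainly by macrophages, and in the rodent uterus C3 is known as a secreted product of the epithelium that responds to estrogen.

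Pgr, the targeted gene, was at 11.3, 12.4 and 7.73 FPKM in libraries labelled deficient, against 9.72, 8.33 and 12.1 FPKM in control libraries. It was therefore not lower under the label, which is why that group is named by its label in what follows. Summed FPKM lay between 357126 and 372372 in the libraries labelled deficient and between 372412 and 377091 in control libraries. The depth of single libraries is unknown. Within each group the third library stood apart, with a correlation on the log2 scale across genes, which are not independent replicates, of 0.971 and 0.976 with the others labelled deficient and of 0.982 and 0.983 with the other controls, against 0.991 and 0.992 between the first and second libraries of each group. Hoxa10, a homeobox gene of the uterus, was at between 24.5 and 34.0 FPKM in libraries labelled deficient and between 26.9 and 28.7 FPKM in control libraries. Of the 6 genes tested from the same decidua list, 1 fell with limma, Des (desmin, also a muscle gene, adjusted p = 0.0044), and 0 rose, against 1.99% and 1.34% of all genes tested. The groups did not overlap for 5 of these 6 genes, against 29% of all genes tested. The libraries labelled deficient lay above for 2 of them and below for 3. Among those below was Prl8a2, a decidual prolactin-family gene, at 5.44, 26.5 and 0.664 FPKM in libraries labelled deficient and 155, 355 and 60.4 FPKM in control libraries (log2 difference -4.50, limma adjusted p = 0.089). All 8 smooth muscle genes listed fell with limma (adjusted p under 0.05), against 1.99% of all genes tested. Their summed level was between 2930 and 3469 FPKM in libraries labelled deficient, against between 7210 and 8757 FPKM in control libraries. In tissue RNA, fewer cells of a type and less RNA per cell cannot be told apart.

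Of the 9 members, 0 passed an adjusted p of 0.05 with limma, against 3.34% of the 12500 genes tested. At an unadjusted p under 0.05 there was 1 member, C3, against 21.5% of all genes. C3 was also the only member whose groups did not overlap, with the libraries labelled deficient above, against 29% of all genes that did not overlap and 20.8% in that direction. The median difference of the 9 members was -0.01 in log2(FPKM + 1), against 0.06 over all genes tested. All 9 reached the minimum mean of 1 FPKM, so each of them was tested.

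The sequences before the annotated start are shown for C3, the member with the largest difference, and for C1qb, a chain of the steadier C1q group. RefSeq promoter entries of GRCm38.p6 matched 4 of the 9 members (C1qb, C1qc, C1s1 and C3). Each line gives the 250 bases before the start, read toward the gene, which in both cases lies on the minus strand. The C3 window is chr17:57228137-57228386 and that of C1qb is chr4:136886201-136886450.
C3: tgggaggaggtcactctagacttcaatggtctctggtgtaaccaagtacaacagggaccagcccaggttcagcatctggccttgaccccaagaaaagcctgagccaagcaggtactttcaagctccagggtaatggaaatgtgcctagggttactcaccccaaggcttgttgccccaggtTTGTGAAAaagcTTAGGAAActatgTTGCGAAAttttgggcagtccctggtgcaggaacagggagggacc
C1qb: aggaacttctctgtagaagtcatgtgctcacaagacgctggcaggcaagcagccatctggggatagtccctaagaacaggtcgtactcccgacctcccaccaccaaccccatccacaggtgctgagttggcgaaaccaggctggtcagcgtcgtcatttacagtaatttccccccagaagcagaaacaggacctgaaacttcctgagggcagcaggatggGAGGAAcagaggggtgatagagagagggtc
Capitals mark matches to searched motifs. In C3 they are 3 stretches of the form TTNNGNAA, a loose form of the site bound by C/EBP factors, which begin 70, 58 and 45 bases before the start. The last of them matches on both strands. At least 1 such match was found in 36.9% of 27025 promoter windows of this length, and 3 or more in 2.66%. In C1qb the capitals mark GAGGAA, the core bound by the myeloid factor PU.1, beginning 30 bases before the start, which 23.1% of windows hold. Both strands were also searched for an interferon element (GAAA, any 2 bases, GAAA), the STAT form TTCNNNGAA, an NF-kappaB form (GGGA, any base, TTTCC), an estrogen response element (GGTCA, any 3 bases, TGACC) and TATAAA, found in 3.04%, 7.18%, 0.337%, 0.0629% and 13% of windows and in neither of these. A match describes letters only.

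The levels of the C1q chains overlapped between the groups. C1qa, the gene of the A chain, was at 140, 158 and 149 FPKM in libraries labelled deficient and at 143, 164 and 164 FPKM in control libraries. C1qb, that of the B chain, was at 127, 139 and 152 FPKM in libraries labelled deficient and at 134, 158 and 148 FPKM in control libraries. C1qc, that of the C chain, was at 109, 127 and 118 FPKM in libraries labelled deficient and at 118, 134 and 133 FPKM in control libraries. The groups overlapped for each chain, and the first library of each group was the lowest of its group for all 3. The differences in log2(FPKM + 1) were -0.07 for C1qa (SE 0.09, 95% confidence interval from -0.28 to 0.14), -0.07 for C1qb (SE 0.10, from -0.31 to 0.17) and -0.12 for C1qc (SE 0.09, from -0.33 to 0.10). The limma adjusted p was 0.67, 0.71 and 0.49 in that order, and all 3 intervals hold 0.

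The proportion of C1qa to C1qc varied least among the chains. C1qa was at between 1.242 and 1.284 times the level of C1qc in the libraries labelled deficient and at between 1.210 and 1.236 times in control libraries. Relative to C1qb, C1qa was at between 0.983 and 1.14 times in the libraries labelled deficient and at between 1.04 and 1.11 times in control libraries. C1qc was at between 0.779 and 0.918 times the level of C1qb in libraries labelled deficient and at between 0.846 and 0.900 times in control libraries. C1qa exceeded C1qc in 6 of 6 libraries and C1qb in 5, the exception being the third library labelled deficient. After centring each gene on its own mean, the profiles of C1qa and C1qc over the 6 libraries differed by a root-mean-square distance of 0.03 in log2, against 0.07 between C1qa and C1qb. The genes lie side by side on chromosome 4, all on the minus strand, within 18.7 kb (GRCm38, 136880129 to 136898803). From low to high coordinates the order is C1qb, C1qc and C1qa, with gaps of 3616 and 2851 bases. In their longest annotated transcripts the only match that blastn found among the 3 was one of 78 bases at 75.6% identity between C1qb and C1qc, so they are not near-identical copies.

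Markers of macrophages, the main known source of C1q, were set beside these values. The mean of log2(FPKM + 1) over 15 macrophage genes was 4.62, 4.85 and 4.65 in the libraries labelled deficient and 4.71, 4.99 and 4.64 in control libraries. Their summed level lay between 943 and 1053 FPKM in libraries labelled deficient and between 910 and 1100 FPKM in control libraries. All 15 were tested and none was at 0. With limma 0 passed and 1 had an unadjusted p under 0.05, against 3.34% and 21.5% of all genes tested. The C1q mean exceeded the macrophage mean by between 2.30 and 2.47 in log2 in the libraries labelled deficient and by between 2.27 and 2.57 in control libraries, so the groups overlapped. The marker with the smallest p was Lyve1, a hyaluronan receptor of resident macrophages and lymphatic endothelium, at 23.1, 32.2 and 19.1 FPKM in libraries labelled deficient and 34.6, 61.6 and 30.8 FPKM in control libraries (log2 difference -0.715, SE 0.30, limma adjusted p = 0.23).

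**Figure D1:**
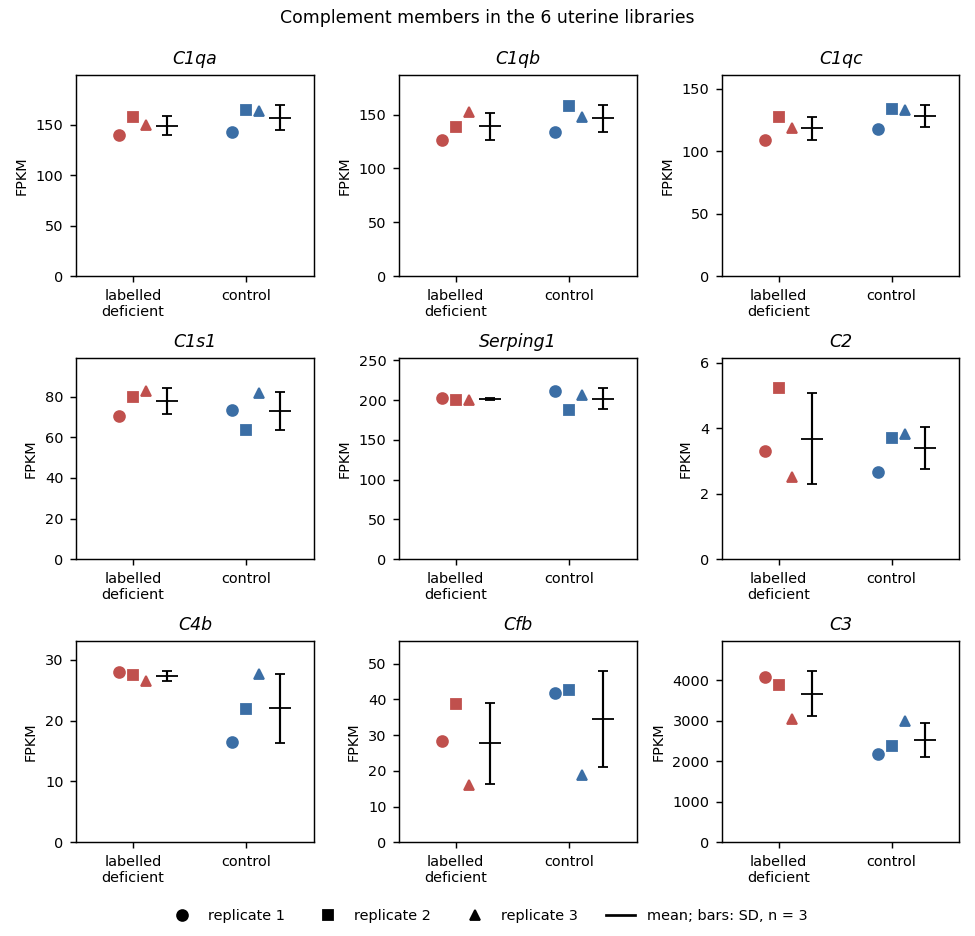
FPKM (linear axes from 0) of each member in the 3 libraries labelled deficient (red, left) and the 3 control libraries (blue, right), with the marker shape giving the replicate and the black bar the mean and SD. C3 is the only panel in which all red points lie above all blue ones, and in Cfb the third library of each group is the lowest.

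C1s1 encodes C1s, the protease that cuts C4 and C2, and Serping1 encodes the C1 inhibitor, which blocks C1r and C1s. C1s1 was at 70.5, 79.9 and 82.6 FPKM in libraries labelled deficient and at 73.2, 63.6 and 81.9 FPKM in control libraries. The groups overlapped and the log2 difference was 0.09 (SE 0.11, 95% confidence interval from -0.18 to 0.36, limma adjusted p = 0.67). It lay between 0.00083 without the second control library and 0.18 without the third. Serping1 was at 203, 200.5 and 200.1 FPKM in libraries labelled deficient and at 212, 187 and 207 FPKM in control libraries. It was the steadiest member, with 1.13 times between its highest and lowest library, and it differed by -0.01 in log2 (SE 0.07, from -0.18 to 0.17, limma adjusted p = 0.98). Serping1 exceeded C1s1 by between 2.42 and 2.87 times in the libraries labelled deficient and by between 2.52 and 2.95 times in control libraries. C1ra, the gene of C1r, lies near C1s1 on chromosome 6 and averaged 22.9 ± 0.9 FPKM in libraries labelled deficient and 22.6 ± 1.7 FPKM in control libraries (SD, n = 3 each).

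C4b and C2 supply the proteins that C1s cuts. C4b was at 28.0, 27.6 and 26.5 FPKM in libraries labelled deficient and at 16.4, 22.0 and 27.7 FPKM in control libraries. The libraries labelled deficient lay close together, while the third control was as high as they were and the first control was the lowest of all 6. The log2 difference was 0.33 (SE 0.17, 95% confidence interval from -0.09 to 0.75, limma adjusted p = 0.33). Its size rested on single controls: it was 0.14 without the first control and 0.50 without the third, neither of which passed (adjusted p = 0.59 and 0.11). C2 was the least abundant member, at 3.30, 5.22 and 2.51 FPKM in libraries labelled deficient and 2.67, 3.70 and 3.81 FPKM in control libraries. The highest and the lowest of its values were both in libraries labelled deficient, and the log2 difference was 0.06 (SE 0.22, from -0.48 to 0.59, limma adjusted p = 0.90).

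Cfb encodes factor B, the protease of the alternative route. It was at 28.3, 38.7 and 16.0 FPKM in libraries labelled deficient and at 41.7, 42.6 and 18.9 FPKM in control libraries. The third library of each group was the lowest, and Cfb varied more than any other member, with 2.66 times between its highest and lowest library. The log2 difference was -0.30 (SE 0.41, 95% confidence interval from -1.29 to 0.69, limma adjusted p = 0.72), and it was -0.67 without the third control and 0.03 without the third library labelled deficient. Cfb and C2 are neighbours on chromosome 17, 85 bases apart and both on the minus strand, and C4b lies in the same block. For the 5 other genes between Tnxb and Ehmt2 that were tested, log2 differences lay between -0.07 and 0.10. Of these 5, 0 passed with limma and 0 had an unadjusted p under 0.05, against 3.34% and 21.5% of all genes tested. Among these 5, Skiv2l, an RNA helicase gene, was at 19.9, 20.1 and 19.2 FPKM in libraries labelled deficient and 20.8, 21.2 and 20.1 FPKM in control libraries.

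The sources used here do not say how reads shared between genes were counted, which could bear on 4 members. The longest C4b transcript matched that of C4a over 5378 bases at 96.0% identity, and the C1s1 transcript matched that of C1s2 over 2643 bases at 95.9%. The copies had low values, C4a at between 0.162 and 0.234 FPKM in libraries labelled deficient and between 0.167 and 0.182 FPKM in control libraries, and C1s2 at between 0.490 and 0.604 and between 0.254 and 0.622 FPKM in those groups. In the GENCODE M21 annotation a gene model, Gm20547, overlaps 99.4% of the span of Cfb and 54.5% of that of C2 on the same strand. Among the 13 genes with values between Tnxb and Ehmt2 there is none of that name. Whether this model entered the counting is not known, so the levels of both stay uncertain.

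C3, the protein cut by every route, was by far the most abundant member. It was at 4089, 3883 and 3057 FPKM in libraries labelled deficient and at 2189, 2375 and 3008 FPKM in control libraries. Every library labelled deficient lay above every control, but the third libraries of the groups were 3057 and 3008 FPKM and nearly met. The means were 3677 ± 547 and 2524 ± 429 FPKM in those groups (SD, n = 3 each), 1.46 times as high under the label. The log2 difference of 0.54 (SE 0.17, 95% confidence interval from 0.13 to 0.96) did not pass (limma adjusted p = 0.15). Without the third library of both groups it was 0.81 and passed (limma adjusted p = 0.020), and with array weights, which give libraries that stand apart less weight, it was 0.74 and passed (adjusted p = 0.018). With 1 library left out it lay between 0.45 and 0.68 and did not pass in any of the 6 fits (adjusted p between 0.083 and 0.36). Of the 12500 genes tested, 1274 passed without the third library of both groups and 1770 with array weights. With all 6 libraries at equal weight, 417 passed.

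C3 was between the fifth and the ninth most abundant gene in the libraries of the series. It made up between 0.821% and 1.14% of the summed FPKM in libraries labelled deficient and between 0.584% and 0.798% in control libraries. Of the summed FPKM of the 9 members, C3 made up between 80.4% and 85.2% in the libraries labelled deficient and between 74.7% and 79.3% in control libraries. It lies on chromosome 17 from 57203970 to 57228136 (GRCm38), more than 22 Mb from C4b.

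Markers of the epithelium were set beside C3. Of 9 epithelium markers tested, 2 rose, Krt19 (a keratin) and Cdh1 (E-cadherin), and 0 fell, against 1.34% of all genes tested that rose and 1.99% that fell. An unadjusted p under 0.05 was found for 5 of the 9, against 21.5% of all genes tested. Krt19 was at 185, 168 and 139 FPKM in libraries labelled deficient, against 91.2, 72.0 and 72.3 FPKM in control libraries (log2 difference 1.05, SE 0.14, limma adjusted p = 0.018). The mean of log2(FPKM + 1) over the 9 markers was 6.65, 6.69 and 6.33 in the libraries labelled deficient and 6.13, 6.04 and 6.17 in control libraries, and the summed level of the 10 listed genes lay between 953 and 1364 FPKM and between 799 and 943 FPKM in those groups. None of the 10 was at 0, and the lowest was Foxa2, a gland factor, at under 0.4 FPKM in every library. C3 exceeded that mean by between 5.23 and 5.35 in log2 in the libraries labelled deficient and by between 4.97 and 5.39 in control libraries, so on this relative scale the groups overlapped. The marker list was chosen with earlier results of these data known. The part of the epithelium in the level of C3 was not tested.

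**Figure D2:**
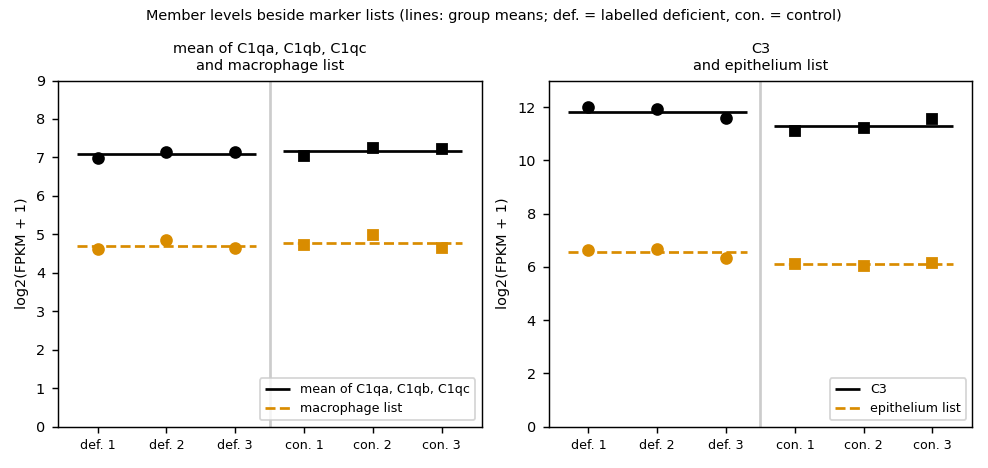
Mean of log2(FPKM + 1) per library, libraries labelled deficient left and controls right. The left panel shows the mean of C1qa, C1qb and C1qc (black) with that of 15 macrophage genes (orange), and the right panel shows C3 (black) with the mean of 9 epithelium genes (orange). Lines are group means, which are close together for C1q and macrophage genes and higher under the label for both C3 and the epithelium genes.

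Ordered by level per length, C3 came first, followed by Serping1, C1qa, C1qb, C1qc, C1s1, Cfb, C4b and C2. The ranges over 6 libraries did not overlap between C3 and Serping1, Serping1 and C1qa, C1qc and C1s1, C1s1 and Cfb, or C4b and C2. They overlapped between C1qa and C1qb, between C1qb and C1qc, and between Cfb and C4b, where Cfb was higher in 4 of 6 libraries. By mean level, Serping1 ranked 234, C1qa 299, C1qb 325 and C1qc 373 among the 12500 genes tested, and C2 ranked 9452.

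The genes whose profiles lay nearest to those of members were taken from 11952 tested genes with a standard symbol. For the mean of the C1q chains they were, nearest first, Sh2d3c, Ncf1, Rai14, Mfsd4b4 and Yaf2, at root-mean-square distances between 0.02 and 0.04 in log2 over the 6 libraries. Sh2d3c, the nearest, averaged 3.70 ± 0.29 FPKM in libraries labelled deficient and 3.98 ± 0.35 FPKM in control libraries (SD, n = 3 each). Ncf1, the next, averaged 10.6 ± 0.9 FPKM in libraries labelled deficient and 11.1 ± 1.0 FPKM in control libraries (SD, n = 3 each). For C3 they were, nearest first, Mustn1, Krt85, Pyroxd2, Sdcbp2 and Itgb4, at distances between 0.06 and 0.08. Mustn1, the nearest, averaged 20.1 ± 4.1 FPKM in libraries labelled deficient and 14.0 ± 2.2 FPKM in control libraries (SD, n = 3 each). Itgb4, the farthest of these, averaged 22.8 ± 2.5 FPKM in libraries labelled deficient and 16.4 ± 2.6 FPKM in control libraries (SD, n = 3 each). The profile of the C1q mean itself spread by only 0.09 around its mean and that of C3 by 0.33. With 11952 genes compared over 6 libraries, nearness does not tell a shared cell source, which was not tested.

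Of 43 other complement genes reported here, 20 reached the minimum mean of 1 FPKM and were tested. With limma 0 of these passed, against 1.34% of all genes tested that rose and 1.99% that fell. An unadjusted p under 0.05 was found for 2 of the 20, C8g higher and Cd59a lower under the label, against 21.5% of all genes tested. The median log2 difference of the 20 was 0.04, against 0.06 over all genes.

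**Figure D3:**
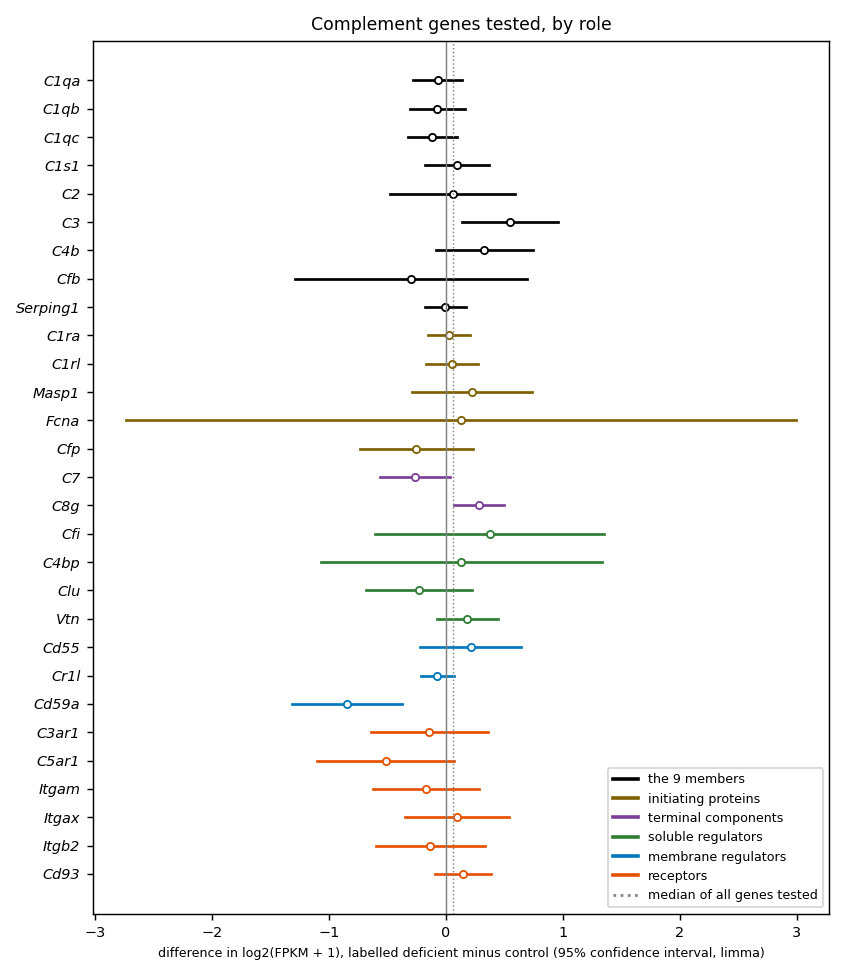
Difference in log2(FPKM + 1), libraries labelled deficient minus control, with its 95% confidence interval from limma, for the 9 members and 20 other complement genes tested, coloured by role. The intervals of C3, C8g and Cd59a leave out 0 although none of the genes drawn passed the adjusted threshold, and the dotted line is the median of all genes tested, 0.06.

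The soluble regulators Vtn, Clu, Cfi and C4bp were all tested. With limma 0 passed and 0 had an unadjusted p under 0.05, against 3.34% and 21.5% of all genes tested. Vtn (vitronectin) differed by 0.18 in log2, Clu (clusterin) by -0.23, Cfi by 0.37 and C4bp by 0.13, with limma adjusted p between 0.38 and 0.90. With 1 library left out, Vtn lay between 0.088 and 0.25, Clu between -0.33 and -0.037, Cfi between 0.012 and 0.83 and C4bp between -0.31 and 0.56. Cfi, the protease that inactivates C3b, was at 10.5, 15.8 and 4.45 FPKM in libraries labelled deficient and 5.47, 6.60 and 8.88 FPKM in control libraries. For Cfi, the third library labelled deficient was the lowest of all 6 while the others under that label were the highest. Without the third library of both groups, Cfi differed by 0.99 (limma adjusted p = 0.051).

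Of 3 membrane regulators tested, 0 passed with limma and 1, Cd59a, had an unadjusted p under 0.05, against 3.34% and 21.5% of all genes tested. Cd59a, which blocks the membrane attack complex, was at 5.60, 7.40 and 4.72 FPKM in libraries labelled deficient and at 8.66, 13.6 and 12.1 FPKM in control libraries. All libraries labelled deficient lay below all controls, as for 8.16% of all genes tested, and the log2 difference was -0.85 (SE 0.20, limma adjusted p = 0.080). Cr1l, the rodent regulator also called Crry, was at between 27.8 and 30.4 FPKM in libraries labelled deficient and between 30.3 and 30.8 FPKM in control libraries (log2 difference -0.07, limma adjusted p = 0.51). Cd55, which speeds the decay of the enzymes that cut C3, differed by 0.21 (adjusted p = 0.54), and Cd46 was at between 0.403 and 0.532 FPKM in libraries labelled deficient and between 0.307 and 0.375 FPKM in control libraries, too low to enter the test.

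Among initiating proteins, 5 of 15 were tested, 0 passed with limma and 0 had an unadjusted p under 0.05, against 3.34% and 21.5% of all genes tested. Cfp, properdin, which stabilises the alternative route, was at 21.4, 31.0 and 22.1 FPKM in libraries labelled deficient and at 28.0, 37.6 and 24.1 FPKM in control libraries (log2 difference -0.25, limma adjusted p = 0.51). Cfd, factor D, which cuts factor B, was at under 0.06 FPKM in every library, and Mbl2, a mannose-binding lectin, was listed at 0 throughout. Fcna, ficolin A of the lectin route, was named after its values were seen. It was at 114, 103 and 4.22 FPKM in libraries labelled deficient and at 22.7, 36.0 and 53.4 FPKM in control libraries. The first and second libraries labelled deficient were the highest of all 6 and the third was the lowest, with 27.1 times between the extremes. It differed by 0.13 in log2 (SE 1.19, limma adjusted p = 0.96) and by 1.89 without the third library of both groups (adjusted p = 0.019). That last fit leaves out the value of 4.22 FPKM. It called 1274 of the 12500 genes tested, against 417 with all libraries at equal weight.

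The terminal components, which form the membrane attack complex, were scarce. Of 7 genes, 2 were tested, 0 passed with limma and 1, C8g, had an unadjusted p under 0.05, against 3.34% and 21.5% of all genes tested. The values were, for C8g, 2.20, 2.18 and 1.91 FPKM in libraries labelled deficient and 1.40, 1.47 and 1.76 FPKM in control libraries (log2 difference 0.28, limma adjusted p = 0.15), and for C7 2.45, 2.23 and 1.73 FPKM in libraries labelled deficient and 2.72, 2.36 and 3.23 FPKM in control libraries (-0.26, adjusted p = 0.29). Hc, the gene of C5, was at between 0.104 and 0.155 FPKM in libraries labelled deficient and between 0.050 and 0.314 FPKM in control libraries. C8a, C8b and C9 were below 0.1 FPKM in every library.

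**Figure D4:**
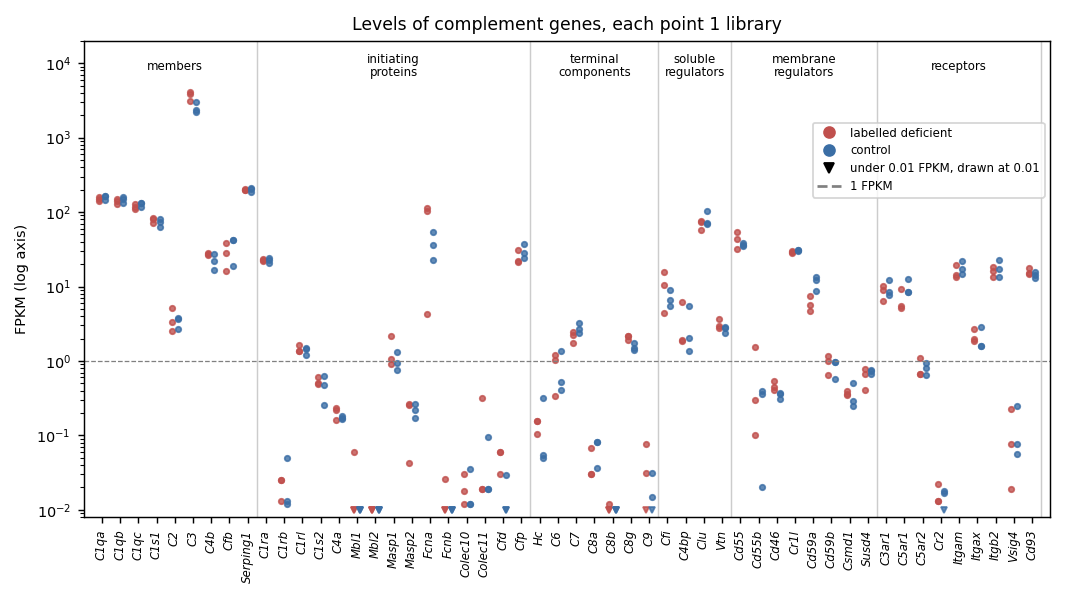
FPKM on a log axis of the 9 members and 43 other complement genes, each point 1 library (red, labelled deficient; blue, control), grouped by role, with values under 0.01 FPKM drawn as triangles at 0.01. C3 stands far above all others, and most initiating proteins and terminal components lie below the dashed line at 1 FPKM.

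Of 9 complement receptor genes, 6 were tested, 0 passed with limma and 0 had an unadjusted p under 0.05, against 3.34% and 21.5% of all genes tested. C3ar1, the receptor of the C3a fragment, named after its values were seen, was at 6.43, 10.0 and 8.91 FPKM in libraries labelled deficient and at 8.45, 12.3 and 7.66 FPKM in control libraries. C5ar1, the C5a receptor, was at 5.53, 9.33 and 5.16 FPKM in libraries labelled deficient and at 8.37, 12.8 and 8.42 FPKM in control libraries. The log2 differences were -0.14 for C3ar1 (limma adjusted p = 0.73) and -0.52 for C5ar1 (adjusted p = 0.28), and the groups overlapped for both. Itgam and Itgb2, the chains of complement receptor CR3, differed by -0.17 and -0.13 (adjusted p = 0.65 and 0.73), and Cd93 by 0.15 (adjusted p = 0.44).

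Genes of signals known to act on complement genes were set beside the members. Of 20 interferon response genes tested, 0 passed with limma and 2 had an unadjusted p under 0.05, against 3.34% and 21.5% of all genes tested. The summed level of the 21 listed was between 203 and 233 FPKM in libraries labelled deficient and between 188 and 247 FPKM in control libraries. Irf1 had the smallest p, at 13.5, 14.3 and 13.5 FPKM in libraries labelled deficient and 11.1, 11.5 and 9.84 FPKM in control libraries (log2 difference 0.33, limma adjusted p = 0.074). The other of the 2, Ifit2, was lower under the label, at 3.8, 3.7 and 3.1 FPKM against 5.0, 5.1 and 3.9 FPKM in control libraries (-0.32, limma adjusted p = 0.18). The median log2 difference of the 20 was -0.04. Of 11 NF-kappaB and acute phase genes tested, 0 passed with limma and 2 had an unadjusted p under 0.05, against the same 3.34% and 21.5%. Of 10 estrogen-responsive genes, 2 rose, Padi1 and Cdkn1a, and 0 fell, against 1.34% and 1.99% of all genes tested. The other 8 did not pass. These lists were chosen with earlier results of these data known, which limits a comparison with those shares. The summed level of the 10 estrogen-responsive genes was 1818, 2585 and 786.7 FPKM in libraries labelled deficient and 1597, 1365 and 1216 FPKM in control libraries. It was mostly that of Lcn2 (lipocalin 2), which is also in the NF-kappaB and acute phase list. Lcn2 was at 1297, 1863 and 501 FPKM in libraries labelled deficient and 1281, 1084 and 952 FPKM in control libraries, with the third library lowest in each group. The part of these signals in the level of any member was not tested.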

How the data were processed

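Uterine RNA of 6 libraries was sequenced, 3 labelled deficient and 3 control. The table deposited by the authors holds FPKM, with a column for each library. Tools named in the submitters' processing notes, without role or order, are STAR 2.7.0f, cutadapt 2.7 and DESeq2 1.24.0, with build mm10. The sources used here do not give the counting program, annotation or strand. FPKM divides by length and library size only, so abundant transcripts shift the rest. Among low values (0.06 to 0.5 FPKM) the commonest ratio to control 1 was between 1 and 1.01, so reads weighed about alike in all columns, and the depth of a library stays unknown.

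The test was limma 3.58.1 (R 4.3.3; lmFit, eBayes with trend) on log2(FPKM + 1), labelled deficient minus control, over the 12500 genes whose mean reached 1 FPKM, with Benjamini-Hochberg adjustment over all of them and a threshold of 0.05. Log2 differences on this scale understate changes of low genes. On simulated data for this comparison (12500 genes, 200 changed), 81.5% of 2-fold and 96% of 4-fold changes were recovered. The noise was drawn independently for each gene and library, so no simulated library stood apart as the third ones do here. The changes were added on the log2(FPKM + 1) scale, and smaller ones were not simulated. These shares therefore do not give the power for the members. Positions are from GENCODE M21 (GRCm38), promoters from RefSeq, and transcripts were compared with blastn 2.17.0. Members, gene lists and alternatives were chosen with earlier results of these data known. All members were named; of each other list the genes called and otherwise up to 4 (complement) or 3 with the smallest p could be named, and the 5 nearest profiles for C1q and C3. Other genes named were chosen after their values were seen. Some complement genes are not reported here.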

Additional observations from a re-analysis of the deposited data

How the results depend on the processing

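Members called were 0 with all alternatives except array weights (1, C3) and without replicate 3 of both groups (1, C3). Other complement genes called were 1 with array weights (C8g), 1 without replicate 3 of both groups (Fcna) and 0 with every other alternative, the replicate block and each fit with 1 library left out among them. Genes called over the whole table were 1770 with array weights, 1274 without replicate 3 of both groups, 143 with the replicate block and between 99 and 519 with 1 library left out, against 417. Across all genes tested, same-numbered libraries did not deviate together (correlations of deviations -0.14, 0.08 and -0.13). With 3 libraries per group, whose deviations are bound by their own mean, this cannot decide whether the numbers give a pairing. The labels name none. The share of higher among called genes moved with scaling: 218 higher and 211 lower after rescaling to a sum of 1000000, 123 and 391 with median-of-ratios scaling and 131 and 336 with quantile normalization, against 168 and 249. The median of all genes was 0.11 after that rescaling and 0.02 with quantile normalization.

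The sign of these differences, none of which passed with all 6 libraries at equal weight, turned in some fits. Pgr was -0.019 with median-of-ratios scaling, -0.0054 with quantile normalization and between -0.078 and 0.23 with 1 library left out, and it was 0.21 with array weights and 0.36 without replicate 3 of both groups (limma adjusted p = 0.089), against 0.046. Serping1 was 0.041 after rescaling, 0.12 with quantile normalization and 0.016 without replicate 3 of both groups. C1ra was -0.043 and -0.011 with median-of-ratios and quantile scaling, C4bp -0.41 with array weights and -0.44 without replicate 3 of both groups, and Masp1 -0.021 in that last fit. With 1 library left out, Serping1 lay between -0.058 and 0.030, C2 between -0.17 and 0.24, Cfb between -0.67 and 0.035, C1ra between -0.032 and 0.074, C1rl between -0.0043 and 0.084, C4bp between -0.31 and 0.56, Itgb2 between -0.30 and 0.041, Masp1 between -9.2e-06 and 0.36 and Fcna between -0.64 and 1.59. The cause of these changes was not tested. Without depth per library, no counting error can be given.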
